A study of Rattus norvegicus with 105 samples.

Results

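The 8 genes of blood clotting and clot removal followed here were Fga, Fgb, Fgg, F2, F9, F3, Plg and Serpinc1. They were taken by gene symbol from a targeted RNA panel, each was measured by 1 probe, and all 8 were found among the 20946 symbols of the table, with counts in all 105 libraries. The labels describe the panel as a human one for rat cells; 15980 of the table's symbols, and all 8 members, are rat symbols in RefSeq, and probe sequences were not analysed here. The cells were rat hepatocytes in primary culture, from female Sprague-Dawley animals and a single commercial lot, on collagen in 96-well plates. TempO-Seq, which joins pairs of detector oligonucleotides on the target RNA and counts the joined pairs by sequencing, was run after 24 hours of exposure. Set 1 held nitromethane (NM) and nitroethane (NE) at 8 concentrations from 0.003 to 10 mM each, rifampin (20 or 40 µM), CITCO (10 or 20 µM), benzo[a]pyrene (BaP, 50 µM), WY-14643 (50 µM), the vehicle DMSO and plain medium. Set 2 held 1-nitropropane (1NP) at the same 8 concentrations, WY-14643 (50 µM in the titles, 100 in the library names), DMSO and medium. Titles give the nitroalkane doses in µM and the protocol in mM; mM is used here. DMSO is 0.2% in the protocol and 0.5 in the titles. Each of the 35 groups had 3 wells. The nitroalkanes carry a nitro group on a carbon chain that is shortest in NM and longest in 1NP. BaP activates the aryl hydrocarbon receptor, CITCO the constitutive androstane receptor (more potently in human than in rat), WY-14643 PPARα, and rifampin, which the titles name and the treatment protocol does not, the human pregnane X receptor. All wells came from 1 lot, so a p-value here covers only well-to-well variation, which may be technical.

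The liver makes most clotting proteins of the plasma. Tissue factor, the product of F3, is a membrane receptor that starts coagulation; the factor IX zymogen (F9) and prothrombin (F2) depend on vitamin K; thrombin cuts fibrinogen, built from the Aα, Bβ and γ chains of Fga, Fgb and Fgg, into fibrin. Antithrombin (Serpinc1) inhibits thrombin, and plasminogen (Plg) is the zymogen of the protease that dissolves fibrin. Fibrinogen is a textbook acute-phase protein whose 3 genes lie side by side and respond to interleukin-6 in liver cells.

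The 3 fibrinogen genes moved together in these data, so the 250 bases before each start are shown, from RefSeq (GRCr8), 5′ to 3′ on the gene's strand. Capitals mark CTGGGA, the core of the interleukin-6 response element, on either strand (read as TCCCAG on the other). The windows lie at chr2:170671919-170672168 (+ strand) for Fga, chr2:170700876-170701125 (− strand) for Fgb and chr2:170652833-170653082 (+ strand) for Fgg.
Fga: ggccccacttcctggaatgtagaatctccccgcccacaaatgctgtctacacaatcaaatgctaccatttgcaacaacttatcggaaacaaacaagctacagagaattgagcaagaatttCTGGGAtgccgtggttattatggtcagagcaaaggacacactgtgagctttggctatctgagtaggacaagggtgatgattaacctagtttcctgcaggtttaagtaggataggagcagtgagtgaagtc
Fgb: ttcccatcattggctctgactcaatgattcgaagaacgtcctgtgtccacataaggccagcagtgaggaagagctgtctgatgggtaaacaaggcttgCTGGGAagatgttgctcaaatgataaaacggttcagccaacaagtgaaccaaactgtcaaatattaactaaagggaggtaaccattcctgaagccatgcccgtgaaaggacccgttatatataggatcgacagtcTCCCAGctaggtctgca
Fgg: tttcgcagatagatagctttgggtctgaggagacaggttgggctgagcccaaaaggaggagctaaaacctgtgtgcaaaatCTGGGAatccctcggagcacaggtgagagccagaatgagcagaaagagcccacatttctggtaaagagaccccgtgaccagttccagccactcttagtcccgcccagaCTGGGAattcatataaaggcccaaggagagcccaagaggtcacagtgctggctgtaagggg
Fga held 1 match, Fgb 2 and Fgg 2. Of the 7 members with a window in the table, Plg, F9 and Serpinc1 held 2 matches each and F2 held 0; F3 had no entry. The same letters stood in 25.7% of all 33469 windows of this length. GTTAAT, a partial HNF1 site, was present on either strand in Fga, Fgb, Plg and F2 and in 6.45% of all windows. TTGCNNAA, a C/EBP-like motif, was present in Fga, Fgb, F9 and Serpinc1 and in 9.22% of all windows. These matches describe letters only.

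Library totals ran from 5475419 to 11122665 counts (median 8680678). Levels below are CPM, a probe's counts relative to the total of its library; they are not per length, so genes are not compared with each other by level. Albumin and the other hepatocyte markers of a list of 10 summed to 6760 to 15600 CPM per library, against medians of 3.23 CPM for stellate and fibroblast markers, 5.02 for Kupffer cell and monocyte markers, 0.318 for endothelial and 0.97 for platelet markers. Cholangiocyte markers, of which Sox9 and Spp1 can also be made by cultured hepatocytes, summed to 224 to 1220 CPM. Medians were 437 CPM for Sox9, 185 for Epcam, 30.6 for Krt19 and 7.41 for Spp1. In RNA from a whole well, fewer cells of a type and less RNA per cell cannot be told apart. The 6 libraries below stood apart from their groups: NM 10 mM replicate 3, NM 3 mM replicate 1, NM 1 mM replicate 1, NE 0.01 mM replicate 3, NE 10 mM replicate 2 and 1NP 10 mM replicate 3. They were chosen after seeing the data and by no fixed cut. Median correlations with the other wells of the group were 0.86, 0.86 and 0.915 for the first 3, 0.879 for 1NP 10 mM replicate 3 and 0.929 for NE 0.01 mM replicate 3, each the lowest of its group. The other wells of NM 10 mM and NM 3 mM, whose medians include those libraries, had 0.924 to 0.928. NE 10 mM replicate 2 held counts for 21627 probes, against a median of 13792. Results that rest on them are given with and without them. Shares of all probes called are those of the fits with all libraries. Counts of members called without these libraries therefore stand beside no share of their own.

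DMSO and plain medium wells differed in all 8 genes: the fibrinogen chains, prothrombin, factor IX, plasminogen and antithrombin were higher with DMSO and tissue factor was lower, in both sets. All 8 genes passed the test (edgeR quasi-likelihood, Benjamini-Hochberg adjusted p under 0.05) in each set, 7 higher and 1 lower. Of all probes tested, 7.06% were called in set 1 (3.88% higher, 3.19% lower) and 24.0% in set 2 (12.4% higher, 11.6% lower). The median log2 change of the 8 genes was 1.41 in set 1 and 1.63 in set 2, beside -0.01 and -0.02 over all probes.

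Fga counted 6110, 6306 and 5728 CPM in DMSO wells of set 1, against 1759, 1961 and 1255 CPM in medium. In set 2 it counted 6401, 5671 and 6339 CPM in DMSO, against 1632, 1742 and 2447 CPM in medium. Every DMSO well was above every medium well, with log2 changes of 1.91 ± 0.17 (SE, adjusted p = 5.92e-07) in set 1 and 1.74 ± 0.16 (adjusted p = 8.97e-07) in set 2. Fgb averaged 1281 ± 92.9 CPM in DMSO and 405 ± 103 CPM in medium in set 1 (SD, n = 3 each). Fgg averaged 8661 ± 561 CPM in DMSO and 2899 ± 543 CPM in medium of that set. Both chains were separated without overlap, with log2 changes of 1.70 ± 0.19 and 1.62 ± 0.12 in set 1 and of 1.89 ± 0.16 and 1.52 ± 0.14 in set 2.

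F3, the membrane trigger, went the other way. It counted 10.8, 15.8 and 12.7 CPM in DMSO wells of set 1, against 29.0, 26.3 and 39.9 CPM in medium. In set 2 it counted 12.1, 19.9 and 13.6 CPM in DMSO, against 40.4, 25.0 and 39.0 CPM in medium. The groups did not overlap in either set, and the log2 changes were -1.23 ± 0.22 (adjusted p = 0.000528) and -1.10 ± 0.24 (adjusted p = 0.00378).

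Plg, the zymogen of fibrin breakdown, counted 51.9, 46.9 and 28.4 CPM in DMSO of set 1, against 13.8, 15.3 and 7.17 CPM in medium (log2 change 1.86 ± 0.42, adjusted p = 0.00966). In set 2 it counted 37.3, 22.7 and 45.1 CPM in DMSO, against 8.13, 7.27 and 7.11 CPM in medium (2.32 ± 0.24, adjusted p = 2.82e-06). The set 1 call on Plg was lost without medium replicate 3 (1.58, adjusted p = 0.0676). F9 counted 49.0, 47.7 and 28.7 CPM in DMSO of set 1, against 23.2, 18.9 and 13.9 CPM in medium, a log2 change of 1.21 ± 0.21. In set 2 the change of F9 was 1.94 ± 0.16. The smallest rises were those of prothrombin F2 (0.57 ± 0.09 and 0.51 ± 0.12) and antithrombin Serpinc1 (0.76 ± 0.13 and 1.14 ± 0.13). F2 averaged 2526 ± 75.9 CPM in DMSO and 1750 ± 261 CPM in medium of set 1, and Serpinc1 averaged 666 ± 42.4 CPM in DMSO and 405 ± 67.1 CPM in medium.

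**Figure D1:**
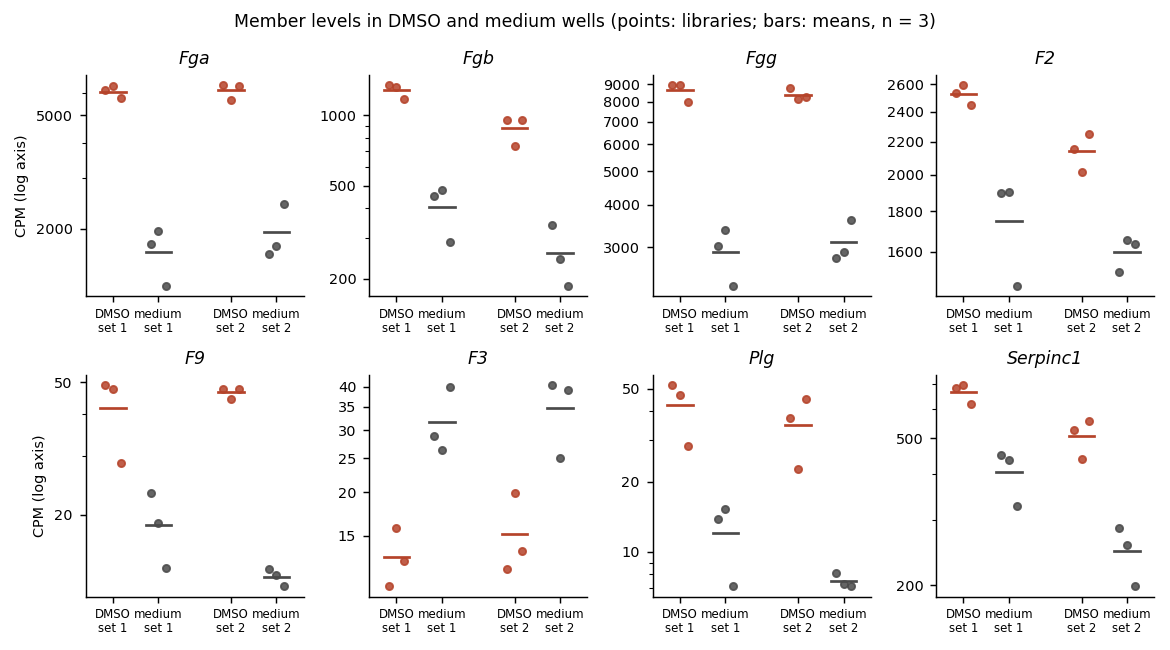
CPM (log axis) of each of the 8 genes in DMSO and medium wells of both sets, points for the 3 libraries of a group and bars for their mean. DMSO points lie above medium points for 7 genes and below them for F3, for example at 5728 to 6306 against 1255 to 1961 CPM for Fga in set 1.

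None of the 8 genes passed the test of the DMSO effect in set 2 minus that in set 1 (edgeR; 1.03% of all probes called; 2 genes at an unadjusted p under 0.05, 0 by DESeq2). The differences nearest to a call were 0.74 for F9 (95% interval 0.19 to 1.28) and 0.39 for Serpinc1 (0.03 to 0.74). Hepatocyte markers moved with DMSO too, at 13700 to 14800 CPM in DMSO and 8540 to 10600 CPM in medium of set 1, and at 13300 to 14700 CPM in DMSO and 8640 to 11900 CPM in medium of set 2. Cholangiocyte markers summed to 545 to 624 CPM in DMSO and 627 to 737 CPM in medium of set 1. Their part in the result was not tested. By the well codes of the libraries, DMSO lay in plate row B and medium in row A in both sets, so vehicle and row cannot be told apart from these wells alone. The 0.01 mM wells of all 3 nitroalkanes also carry row B codes, and members differed in where those wells lay. Fga means were 2318 CPM for NM and 2814 for NE, against 6048 CPM in DMSO and 1658 CPM in medium of set 1. For 1NP the Fga mean was 2237 CPM, against 6137 CPM in DMSO and 1940 CPM in medium of set 2. NE replicate 3, which stood apart, had 4004 CPM of Fga, and the other NE wells had 2219 CPM. The NE means of this paragraph include it. Serpinc1 means were nearer to DMSO for NM (575 CPM, against 666 in DMSO and 405 in medium) and 1NP (438 CPM, against 507 in DMSO and 247 in medium), while NE had 460 CPM. F2 means were 2058 CPM for NM and 1849 for NE, against 2526 in DMSO and 1750 in medium of set 1. Plg means were 23.9 CPM for NM and 22.4 for NE, against 42.4 in DMSO and 12.1 in medium, and 20.4 CPM for 1NP, against 35.03 in DMSO and 7.51 in medium. F3 means were 24.65 CPM for NM and 27.8 for NE, against 13.1 in DMSO and 31.7 in medium of set 1. F9 means were 24.8 and 22.9 CPM, against 41.8 in DMSO and 18.7 in medium. Fgb means were 496 and 399 CPM, against 1281 in DMSO and 405 in medium. At 0.01 mM against medium, 5 genes with NM, 3 with NE and 3 with 1NP had an unadjusted p under 0.05 (edgeR). The part of the plate row in the DMSO result was not tested.

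Other genes of the system were read from 4 lists with 38 genes in all. Of all probes tested, 3.88% were higher in DMSO and 3.19% lower in set 1, and 12.4% and 11.6% in set 2. In set 1, 3 of 9 tested probes of coagulation and contact factors, 2 of 6 anticoagulant and 4 of 9 fibrinolysis probes and 0 of 6 probes of the vitamin K cycle and factor export were higher in DMSO, and none was lower. Kng1, the kininogen of the contact system, was higher with both of its probes (1.68 ± 0.24 and 0.97 ± 0.11). Serpinf2, the plasmin inhibitor, rose by 0.93 ± 0.13, Serpina10 by 0.51 ± 0.15, the plasminogen activator Plat by 0.44 ± 0.09 and F12 by 0.39 ± 0.12. In set 2, 5 of 9 coagulation factor, 1 of 6 anticoagulant and 1 of 6 vitamin K and export probes were higher and none was lower, while 4 of 9 fibrinolysis probes were higher and 2 lower (list median -0.03). F13b, the carrier subunit of factor XIII, was higher by 1.80 ± 0.17, Kng1 by 1.48 ± 0.16 and 1.05 ± 0.15 and F10 by 0.95 ± 0.26. Plau, the urokinase, was lower by -0.65 ± 0.21, and 1 probe of Vkorc1l1, a paralog of the vitamin K epoxide reductase, was higher (0.71 ± 0.16).

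The calls of the nitroalkanes depended on the control, and the labels do not say whether their wells held DMSO. From 0.003 to 1 mM, none of 144 gene-by-concentration values against medium was called for NM, NE or 1NP (edgeR; 17 at an unadjusted p under 0.05, 2 by DESeq2), while at most 0.219% of all probes were called at any of these concentrations. Without the libraries that stood apart 3 were called, all higher and at 0.01 mM: Plg with NM (1.00 ± 0.18, adjusted p = 0.00204) and with 1NP (95% interval of the log2 change 0.88 to 2.12, adjusted p = 0.02), and Serpinc1 with 1NP (0.89 ± 0.23, adjusted p = 0.0449). With no filter on low counts 12 were called, 11 higher and 1 lower. Against DMSO, 102 of the same 144 values were called, 90 lower and 12 higher. The share of all probes called against DMSO ran from 0.405% (1NP 0.01 mM) to 20.0% (1NP 0.003 mM) over these concentrations. The 12 higher ones were F3 with NM and NE at 6 concentrations each. Fga and Fgg were lower than in DMSO at all 18 low concentrations, with log2 changes of -2.25 to -1.0 and -1.91 to -0.79. F3 had log2 changes of 0.82 to 1.59 over the 18, of which 12 were called, and Serpinc1 was called at 2. Without the libraries that stood apart, 130 of the 144 were called, 112 lower and 18 higher; F3 and Fgb were then called at all 18 and Serpinc1 at 11, for example with NM at 0.003 mM (-0.77 ± 0.10, adjusted p = 3.09e-06). At 0.3 mM NE, where the fibrinogen chains were lowest among NE groups, Fga counted 1315, 1381 and 1404 CPM, against 1759, 1961 and 1255 CPM in medium, which overlap. Against DMSO, 5.29% of all probes were called at that concentration.

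**Figure D2:**
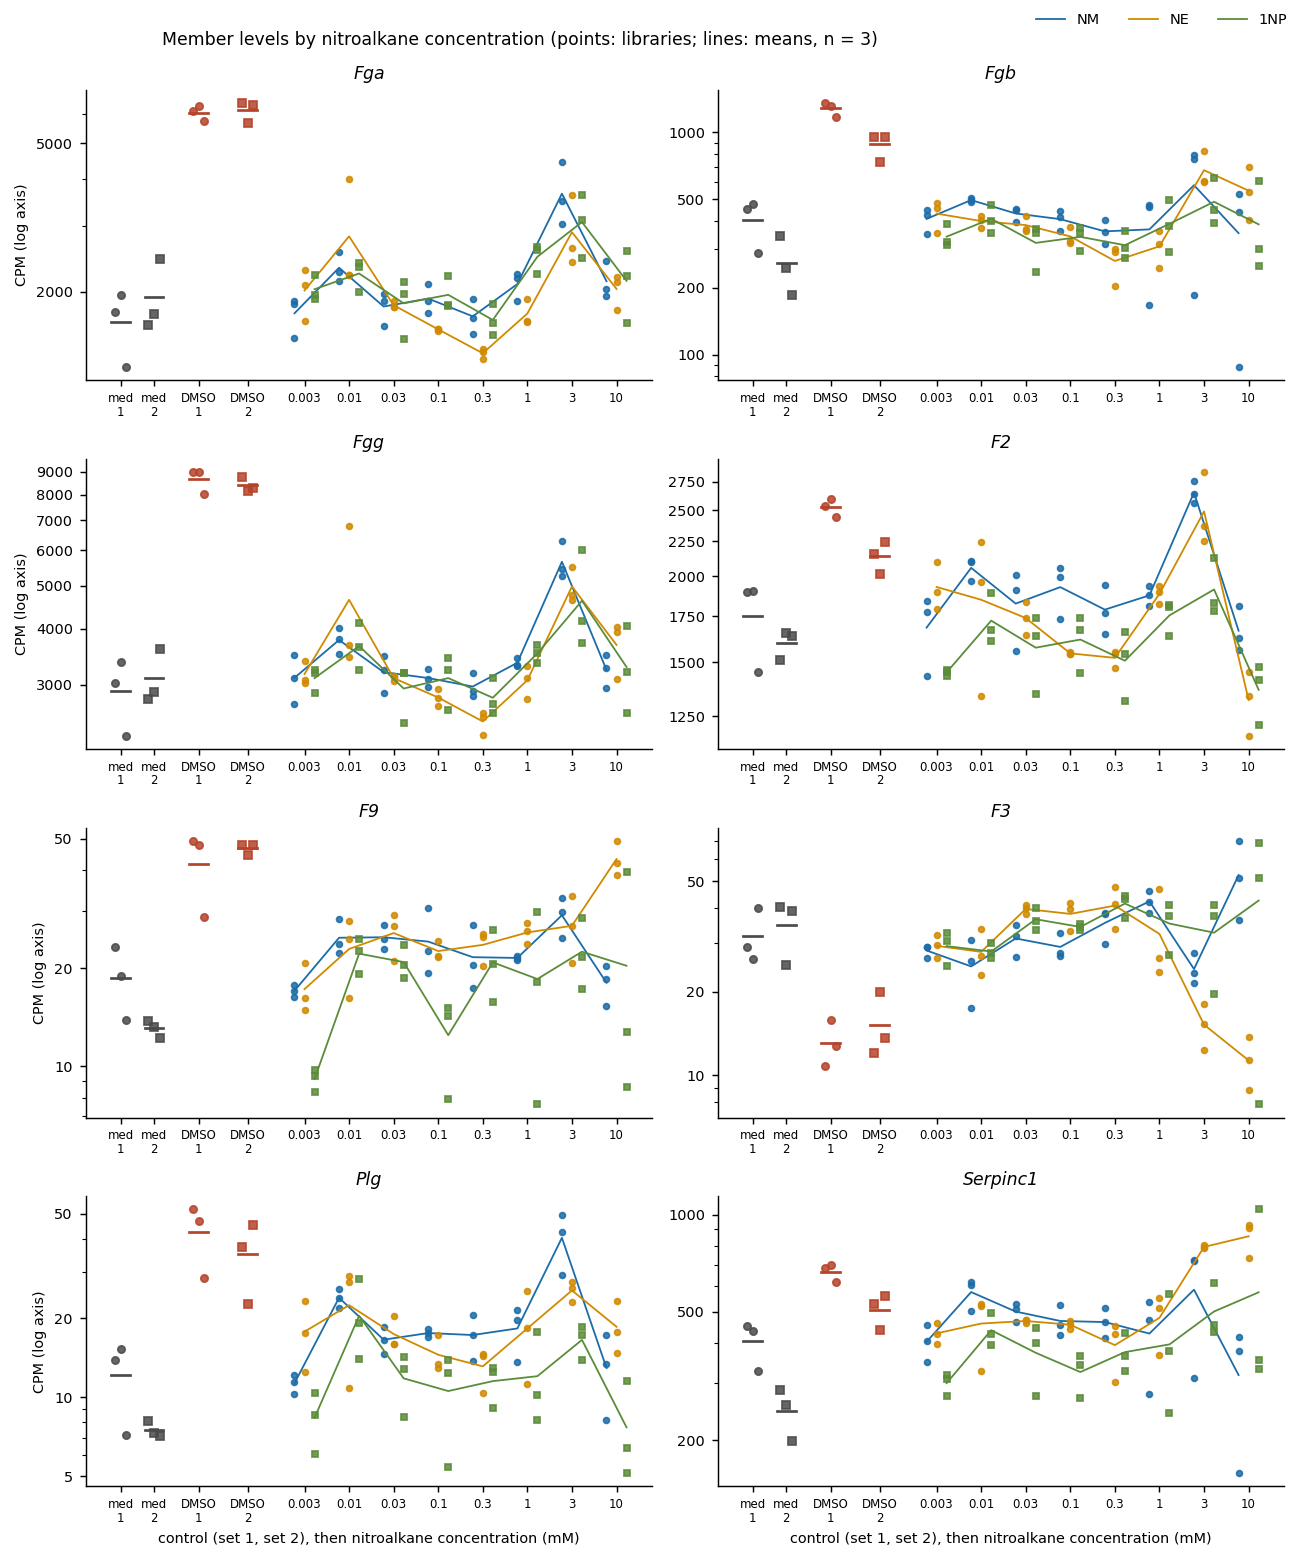
CPM (log axis) of each gene, with medium and DMSO of both sets at the left and the 8 concentrations of NM, NE and 1NP in mM to the right; points are libraries, lines join the means of 3. Mean Fga, Fgb, Fgg and F2 are highest at 3 mM within each compound (3663, 2888 and 3073 CPM for Fga with NM, NE and 1NP), and F3 of NE drops to 11.3 CPM at 10 mM while that of NM reaches 52.5 CPM.

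At 3 mM, NM wells had more fibrinogen, prothrombin and plasminogen RNA than medium wells. Of the 8 genes, 4 were called higher, with 2.32% of all probes called (1.95% higher). Fga counted 4445, 3041 and 3502 CPM in NM wells, against 1759, 1961 and 1255 CPM in medium (log2 change 1.15 ± 0.15, adjusted p = 7.24e-05). Plg counted 29.2, 42.6 and 49.4 CPM in NM wells, against 13.8, 15.3 and 7.17 CPM in medium (1.76 ± 0.29, adjusted p = 0.000865). Neither pair of groups overlapped, and the same held for Fgg (0.97 ± 0.12) and F2 (0.61 ± 0.12). The F2 call ended without medium replicate 3 (0.50, adjusted p = 0.0547). Fgb counted 186, 759 and 791 CPM in NM wells, against 451, 477 and 287 CPM in medium, and Serpinc1 counted 311, 719 and 725 CPM in NM wells, against 451, 437 and 328 CPM in medium. In both, replicate 1 of NM lay below every medium well while the other NM wells lay above them. Without the libraries that stood apart, replicate 1 among them, 7 of 8 genes were called, Fgb at 0.97 ± 0.18, F9 at 0.66 ± 0.20 and Serpinc1 at 0.87 ± 0.14, and F3 was not (-0.47 ± 0.18). Hepatocyte markers summed to 14100 to 15600 CPM in NM 3 mM wells and to 8540 to 10600 CPM in medium. Against DMSO, Fga (-0.78 ± 0.12) and Fgg (-0.66 ± 0.10) were lower at 3 mM NM (0.679% of probes called), and Plg differed by -0.10 with a 95% interval of -0.62 to 0.42.

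At 10 mM NM, no member passed the test against medium (edgeR, 0.662% of probes called; 2 at an unadjusted p under 0.05, 0 by DESeq2). Fga counted 2038, 1943 and 2417 CPM in NM wells, against 1759, 1961 and 1255 CPM in medium (0.31 ± 0.15). F3 counted 36.3, 51.4 and 69.9 CPM in NM wells, against 29.0, 26.3 and 39.9 CPM in medium; the mean of 52.5 ± 16.8 CPM was the highest of the 35 groups, yet the groups overlapped (0.67 ± 0.20, adjusted p = 0.133). F3 was called without NM replicate 1 (0.88, adjusted p = 0.0431). Without replicate 3, which stood apart and held the 69.9 CPM, the change was 0.45 (adjusted p = 0.679). The rank of the mean includes that well. Fgb at 88.1 CPM and Serpinc1 at 158 CPM in replicate 3 were the lowest of all 105 libraries. Against DMSO all 8 genes were called (7.19% of probes), 7 lower and F3 higher (1.89 ± 0.20, adjusted p = 2.87e-06). Without replicate 3 of NM, Fgb (-1.47, adjusted p = 0.0511) and Serpinc1 (-0.80, adjusted p = 0.14) lost that call. Fgb also lost it without DMSO replicate 1, and Serpinc1 without any single DMSO replicate, with log2 changes of -2.37 to -1.47 and -1.41 to -0.80 over the wells left out. Cholangiocyte markers summed to 829 to 1220 CPM in NM 10 mM wells and 627 to 737 CPM in medium. Of the 4 tested probes of that list, 0 were called higher and 0 lower, with a median log2 change of -0.07. The part of these markers in the F3 values was not tested.

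At 3 mM NE, 6 of the 8 genes were higher than in medium and F3 was lower, with 11.5% of all probes called (6.15% higher, 5.38% lower). Fga counted 2407, 2623 and 3633 CPM in NE wells, against 1759, 1961 and 1255 CPM in medium (0.88 ± 0.23, adjusted p = 0.0122). Serpinc1 counted 786, 792 and 803 CPM in NE wells, against 451, 437 and 328 CPM in medium (1.05 ± 0.19, adjusted p = 0.000403). F3 counted 17.98, 15.3 and 12.4 CPM in NE wells, against 29.0, 26.3 and 39.9 CPM in medium (-0.98 ± 0.21, adjusted p = 0.0024). None of these groups overlapped. Fgb (0.82 ± 0.23), Fgg (0.86 ± 0.23), F2 (0.59 ± 0.15) and Plg (1.15 ± 0.33) were also called, and F9 was not (0.61 ± 0.22, adjusted p = 0.0721). The count of 7 fell to 2, Serpinc1 and F3, without medium replicate 3, where Fga was 0.71 (adjusted p = 0.104), Fgb 0.62, Fgg 0.71, F2 0.46 and Plg 0.88. It fell to 3 without NE replicate 3, where F9 was added (0.77, adjusted p = 0.0369) and the same 5 genes lost their call, with Fga at 0.68 (adjusted p = 0.0921), Fgb 0.64, Fgg 0.78, F2 0.48 and Plg 1.14. F9 was also called without medium replicate 1 (0.80, adjusted p = 0.0433). Plg lost its call without NE replicate 1 (1.10, adjusted p = 0.0553). Hepatocyte markers summed to 11200 to 14500 CPM and cholangiocyte markers to 316 to 361 CPM in NE 3 mM wells, against 8540 to 10600 and 627 to 737 CPM in medium. Against DMSO (6.08% of probes called), the fibrinogen chains were lower, Fga by -1.05 ± 0.22, Fgb by -0.90 ± 0.21 and Fgg by -0.78 ± 0.22. The call on Fgg was lost without any one of the 6 wells (-0.86 to -0.73), and that on Fgb without DMSO replicate 2 or NE replicate 2 (-1.08 to -0.82 over the wells left out). F9 was called as lower without DMSO replicate 3 (-0.83) or NE replicate 1 (-0.80).

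At 10 mM NE, 2 of the 8 genes were called higher than in medium and 2 lower, beside 34.0% of all probes called (16.6% higher, 17.4% lower). With so many probes called, these counts are not read as particular to the members. F9 and Serpinc1 were higher, F3 and F2 were lower, and the fibrinogen chains and Plg were not called. Which members were called depended on the libraries kept, as given below. F3 counted 13.7, 11.3 and 8.88 CPM in NE wells, against 29.0, 26.3 and 39.9 CPM in medium (-1.49 ± 0.22, adjusted p = 5.67e-06). F9 counted 49.3, 38.6 and 42.0 CPM in NE wells, against 23.2, 18.9 and 13.9 CPM in medium (1.22 ± 0.22, adjusted p = 7.74e-05). Serpinc1 counted 926, 735 and 908 CPM in NE wells, against 451, 437 and 328 CPM in medium (1.09 ± 0.19, adjusted p = 6.39e-05). These 3 genes did not overlap between the groups. F2 counted 1452, 1171 and 1339 CPM in NE wells, against 1899, 1902 and 1449 CPM in medium; the groups overlapped, and the call (-0.39 ± 0.15, adjusted p = 0.0423) was lost without medium replicate 1 or 2 or NE replicate 2 or 3 (-0.54 to -0.25 over the wells left out). Fga, Fgb and Fgg changed by 0.31 ± 0.23, 0.45 ± 0.23 and 0.36 ± 0.23, all overlapping. Without the NE libraries that stood apart (10 mM replicate 2 and 0.01 mM replicate 3), 7 of 8 genes were called: Fga at 0.47 ± 0.16, Fgb at 0.70 ± 0.23, Fgg at 0.55 ± 0.13 and Plg at 0.85 ± 0.32 were added and F2 was not (-0.23 ± 0.12). Within the NE 10 mM wells, endothelial markers summed to 0.124 to 11.6 CPM, platelet markers to 0.371 to 14.2 and stellate markers to 0.333 to 19.3. Replicate 2, which stood apart, held counts for 21627 probes, and replicates 1 and 3 held counts for 13477 and 13515. The part of these markers in the member values was not tested.

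Against DMSO, Fga (-1.62 ± 0.22), Fgb (-1.26 ± 0.22), Fgg (-1.28 ± 0.22), F2 (-0.98 ± 0.14) and Plg (-1.23 ± 0.31) were lower at 10 mM NE, with 28.9% of all probes called. F3 (-0.27, 95% interval -0.70 to 0.16), F9 (0.00, -0.42 to 0.42) and Serpinc1 (0.32, -0.03 to 0.67) were not called. Serpinc1 was called without NE replicate 2 (0.50, adjusted p = 0.0437). Cholangiocyte markers summed to 224 to 287 CPM and hepatocyte markers to 6760 to 8830 CPM in NE 10 mM wells, against 545 to 624 and 13700 to 14800 CPM in DMSO. The hepatocyte markers did not move as a list. Of 10 tested probes, 2 were higher than in DMSO, 4 lower and 4 not called (median log2 change -0.42). All probes had 13.3% higher and 15.6% lower there. Against medium, 4 hepatocyte probes were higher and 1 lower (median 0.13).

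Around the members at 10 mM NE, 5 of 8 tested fibrinolysis probes were lower than in medium and none was higher, with a list median of -1.29 beside 0.03 over all probes, of which 16.6% were higher and 17.4% lower. Coagulation factors were mixed (3 higher and 1 lower of 9, median 0.07), as were anticoagulants (2 higher and 2 lower of 8, median 0.47). Plat, the tissue plasminogen activator, changed by -1.92 ± 0.15, the urokinase receptor Plaur by -1.48 ± 0.15, and Anxa2, a cell-surface subunit that binds plasminogen, by -1.47 ± 0.14. Of 6 probes of the vitamin K cycle and factor export, 5 were higher, among them Lman1 (1.42 ± 0.22), the cargo receptor that carries factors V and VIII out of the endoplasmic reticulum. Proc, the protein C zymogen, was lower (-1.61 ± 0.19). Plau, below the 10 CPM set for naming and singled out after its values were seen, had the largest drop of the list (-4.62 ± 0.26). Of the Kng1 probes, that with fewer counts was higher (2.41 ± 0.44) and the other was not called (0.07 ± 0.20). At 3 mM NE, 6.15% of all probes were higher than in medium and 5.38% lower. There 5 of 6 vitamin K and export, 3 of 8 anticoagulant and 1 of 9 coagulation factor probes were higher and none was lower. Of 8 fibrinolysis probes 1 was higher and 3 were lower. Lman1 (1.33 ± 0.22) and its partner Mcfd2 (0.98 ± 0.15), Serpinf2 (1.69 ± 0.22), F10 (1.01 ± 0.26) and Serpina10 (0.94 ± 0.20) were higher and Plau was lower (-1.11 ± 0.19). With NM, Cpb2 (0.35 ± 0.09) was higher at 3 mM and Plat (0.48 ± 0.11) at 10 mM.

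At 3 mM 1NP, 7 of the 8 genes had higher levels than medium without overlap, F3 excepted, beside 6.98% of all probes tested, but none was called. Fga counted 2468, 3118 and 3635 CPM in 1NP wells, against 1632, 1742 and 2447 CPM in medium of set 2 (0.74 ± 0.19, adjusted p = 0.0756). Serpinc1 counted 432, 455 and 616 CPM in 1NP wells, against 286, 257 and 199 CPM in medium (1.12 ± 0.35, adjusted p = 0.138). Neither pair overlapped. None of 8 genes was called against medium (edgeR, 0.223% of probes called; 6 at an unadjusted p under 0.05, 5 by DESeq2), and 5 were called without 1NP 10 mM replicate 3, which shares the fit: Fga 0.73, Fgb 1.02, Fgg 0.65, Plg 1.22 and Serpinc1 1.11. Without medium replicate 6, Fga (1.00, adjusted p = 0.00513) and Fgg (0.84, adjusted p = 0.0215) were called. Against DMSO, Fga (-1.04 ± 0.16) and Fgg (-0.90 ± 0.17) were lower, with 0.570% of probes called. Fgg lost this call without any DMSO replicate or without replicate 1 or 2 of 1NP (-1.13 to -0.72 over the wells left out).

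At 10 mM 1NP, replicate 3 differed from the other wells of its group. F3 counted 51.3, 68.5 and 7.85 CPM in 1NP wells, against 40.4, 25.0 and 39.0 CPM in medium. F9 counted 8.64, 12.8 and 39.6 CPM in 1NP wells, against 13.8, 13.2 and 12.2 CPM in medium, and Serpinc1 counted 332, 354 and 1037 CPM in 1NP wells, against 286, 257 and 199 CPM in medium. Replicate 3 was the lowest of the 3 wells for F3 and the highest for F9 and Serpinc1. Serpinc1 was called against medium (1.33 ± 0.35, adjusted p = 0.0252), the only member of 8, with 10.2% of all probes called. It was lost without 1NP replicate 3 (0.52, adjusted p = 0.306), and without medium replicate 5 or 6, with 0.52 to 1.60 over the wells left out. Fgb was called without 1NP replicate 1 (0.93, adjusted p = 0.0259). Against DMSO, 5 genes were lower with 2.17% of probes called: Fga (-1.56 ± 0.17), Fgb (-1.22 ± 0.28), Fgg (-1.39 ± 0.17), F2 (-0.70 ± 0.11) and Plg (-2.21 ± 0.38). Without replicate 3, F9 (-2.18, adjusted p = 0.00103) and F3 (1.92, adjusted p = 1.74e-06) were added. Fgb lost its call without DMSO replicate 4 or 6 or without 1NP replicate 1 or 2 (adjusted p up to 0.0805). Of all probes, 6.81% were higher than in medium and 3.39% lower. Of the other genes of the system, none was lower. Those higher were 4 of 6 anticoagulant, 3 of 6 vitamin K and export, 1 of 9 coagulation factor and 0 of 8 fibrinolysis probes. Vkorc1l1 with both probes (0.92 ± 0.21 and 0.78 ± 0.20), Tfpi, the inhibitor of the tissue factor pathway (0.88 ± 0.21), and Ggcx, the vitamin K-dependent carboxylase (0.46 ± 0.13), were among them. Cholangiocyte markers summed to 250 to 759 CPM in these wells and 852 to 1010 CPM in medium of set 2. Of the 4 tested probes of that list, 0 were called higher and 0 lower, with a median log2 change of -0.29.

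A slope over the rank of the 8 concentrations, fitted without any control, was negative for F3 with NE (-0.17 ± 0.05 log2 per step, adjusted p = 0.0123) and positive for F9 (0.13 ± 0.03, adjusted p = 0.000961) and Serpinc1 (0.13 ± 0.03, adjusted p = 0.00113), with 26.1% of all probes called. The F3 slope lost its call without replicate 1 (-0.18, adjusted p = 0.0819) or 2 (-0.16, adjusted p = 0.103), and that of F9 without replicate 1 (0.10, adjusted p = 0.0506). With NM, F3 alone was called (0.10 ± 0.03, adjusted p = 0.0359; 9.88% of probes), and the call was lost without any 1 of the 3 replicates (0.08 to 0.11) and without the libraries that stood apart. With 1NP none was called (edgeR, 4.77% of probes; 2 at an unadjusted p under 0.05, 0 by DESeq2), but F3 was without replicate 3 (0.13, adjusted p = 0.00483). The fibrinogen chains had no called slope with any of the 3 compounds, and their means were highest at 3 mM with each of them.

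**Figure D3:**
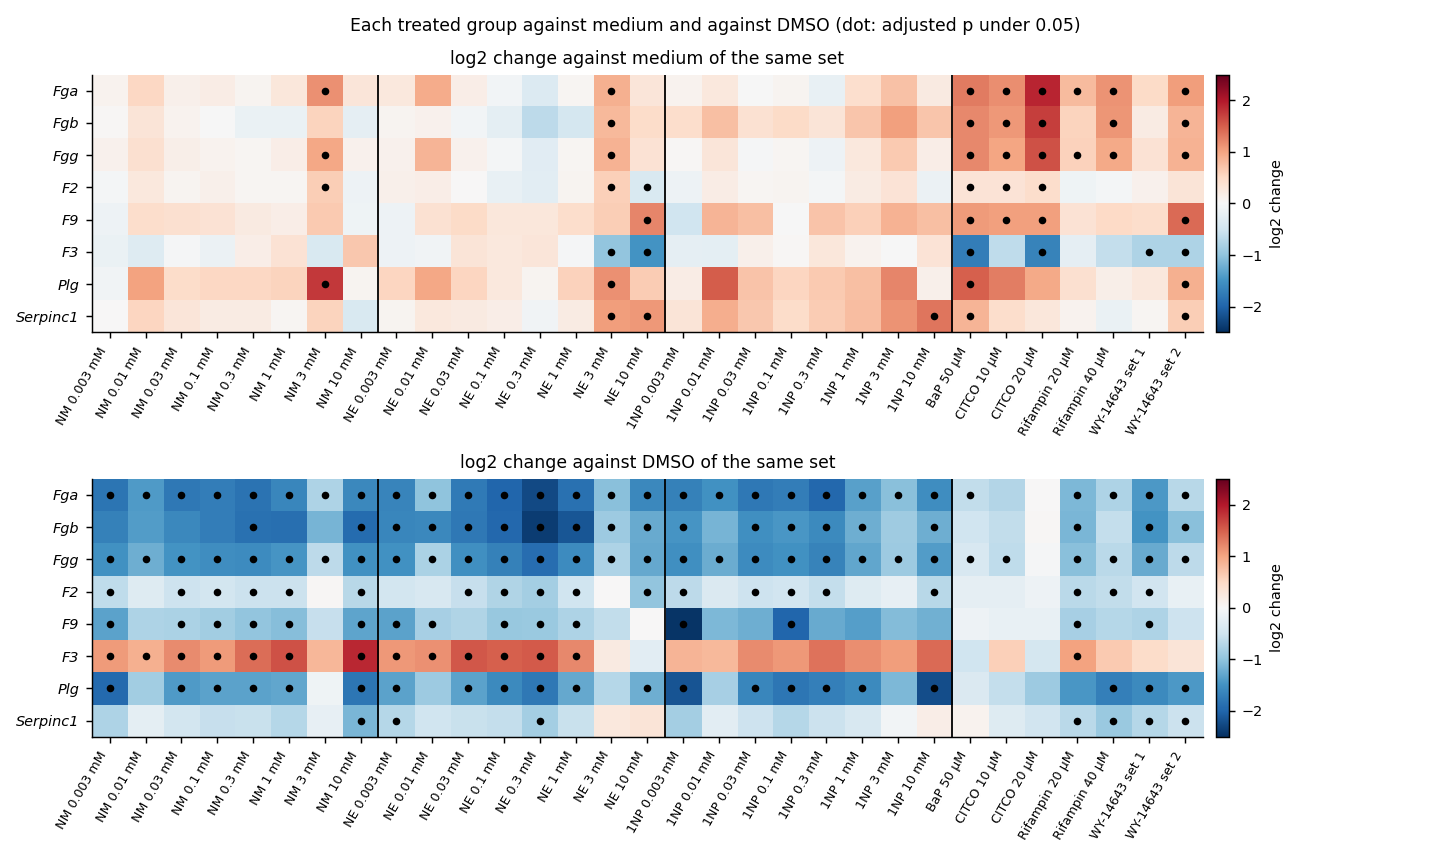
log2 change of each gene (rows) in every treated group (columns) against medium, above, and against DMSO of its set, below; colour runs from blue (lower) to red (higher) and a dot marks an adjusted p under 0.05. The upper map has no dots for the nitroalkanes up to 1 mM. In the lower map dots stand there at 102 of 144 places, beside 0.405% to 20.0% of all probes called per group.

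The compounds were compared with each other at each matched concentration. NE minus NM, within set 1, gave 64 values over 8 concentrations, of which 3 were called, all at 10 mM, where 11.7% of all probes were called. F3 counted 13.7, 11.3 and 8.88 CPM in NE wells, against 36.3, 51.4 and 69.9 CPM in NM wells, a difference of -2.15 ± 0.31 (adjusted p = 0.00405). F9 counted 49.3, 38.6 and 42.0 CPM in NE wells, against 20.3, 15.3 and 18.5 CPM in NM wells (1.32 ± 0.25, adjusted p = 0.012). Serpinc1 counted 926, 735 and 908 CPM in NE wells, against 419, 379 and 158 CPM in NM wells (1.48 ± 0.37, adjusted p = 0.0373). None of the 3 overlapped. The F9 call was lost without NE replicate 1 or 3 or NM replicate 2 (1.17 to 1.32), and that of Serpinc1 without any NE replicate or NM replicate 2 (1.37 to 1.64). For Fga the difference was -0.00 (95% interval -0.42 to 0.41), for Fgb 0.69 (-0.43 to 1.81), for Fgg 0.25 (-0.19 to 0.69), for F2 -0.27 (-0.68 to 0.13) and for Plg 0.58 (-0.13 to 1.29). Without the libraries that stood apart, 6 of 8 were called: F3 -1.86 ± 0.23, F9 1.45 ± 0.18, Serpinc1 1.30 ± 0.08, Fgg 0.41 ± 0.08, Fgb 0.45 ± 0.12 and Fga 0.22 ± 0.07. Around the members, Plat (-2.40 ± 0.28), Anxa2 (-1.22 ± 0.29) and Plaur (-1.17 ± 0.28) were lower with NE than with NM at 10 mM, and F13b (1.48 ± 0.28), Mcfd2 (1.29 ± 0.21) and Lman1 (1.20 ± 0.27) were higher. At 3 mM no member differed by a call (edgeR, 0.0179% of probes; 2 at an unadjusted p under 0.05), and the interval for F3 was -1.09 to -0.12.

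As 1NP was run in set 2, its effect over the controls there was set against that of NM or NE over theirs, with 256 values over 32 comparisons and p-values adjusted over all probes of each. Of these, 5 were called: F9 was lower at 0.003 mM over DMSO against both NM (-1.11 ± 0.24; 6.53% of probes called) and NE (-1.11 ± 0.26; 0.861%). At 0.1 mM over DMSO against NE (15.4%), F9 was lower (-1.05 ± 0.31) and F2 (0.29 ± 0.10) and Fgb (0.52 ± 0.16) were higher. At 10 mM, none of the 8 genes was called against NM or NE, over medium or over DMSO (edgeR, 0% of probes; 1, 1, 0 and 0 at an unadjusted p under 0.05, 0 by DESeq2). The intervals were wide. For F3 the 1NP effect minus the NE effect over medium was 1.82 (95% interval 0.26 to 3.37) and for Serpinc1 the 1NP effect minus the NM effect was 1.69 (0.48 to 2.90). Without 1NP replicate 3, the difference from NE over medium was called for F3 (2.29, adjusted p = 0.000117) and F9 (-1.48, adjusted p = 0.00573), and over DMSO also for Serpinc1 (-0.96, adjusted p = 0.00533). The difference from NM was called for none of the 8 genes under this choice either.

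**Figure D4:**
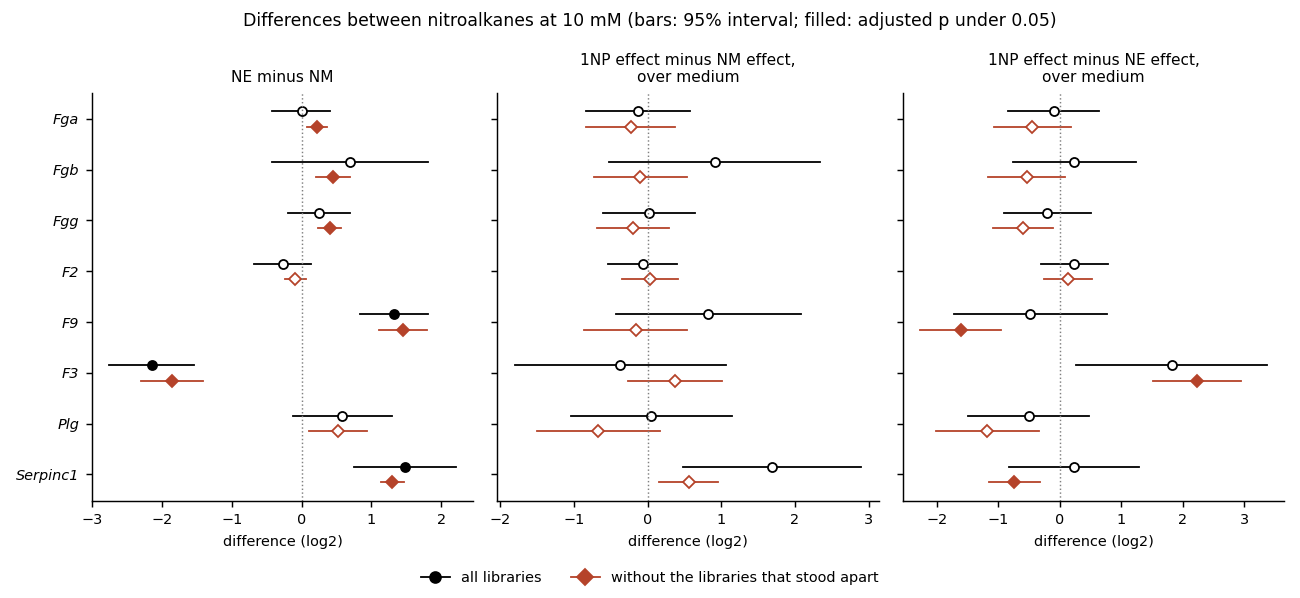
Differences between the nitroalkanes at 10 mM on the log2 scale with 95% intervals, for all libraries (circles) and without those that stood apart (diamonds); filled symbols have an adjusted p under 0.05. NE lies below NM for F3 (-2.15) and above it for F9 (1.32) and Serpinc1 (1.48), while the 1NP intervals over all libraries hold no call.

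The reference compounds are given against both controls. At 20 µM CITCO, Fga counted 6264, 6616 and 5605 CPM, against 6110, 6306 and 5728 CPM in DMSO and 1759, 1961 and 1255 CPM in medium. The CITCO and DMSO groups overlapped (-0.00, 95% interval -0.32 to 0.32), and CITCO and medium did not (1.91 ± 0.17, adjusted p = 1.49e-07). Against medium, 6 of 8 genes were called (14.7% of probes; 7.33% higher, 7.42% lower), with Plg (0.95 ± 0.43) and Serpinc1 (0.29 ± 0.13) not called. Serpinc1 was called there without CITCO replicate 1 (0.40). Against DMSO no member was called (edgeR, 0.843% of probes; 2 at an unadjusted p under 0.05, 1 by DESeq2), but Serpinc1 was without CITCO replicate 2 (-0.60). At 10 µM CITCO, 5 genes were higher than in medium (2.58% of probes, 1.83% higher) and Fgg was lower than in DMSO (-0.64 ± 0.11; 0.149% of probes, 0.0909% higher and 0.0578% lower). The Fgg call was lost without DMSO replicate 2 or CITCO replicate 2 or 3 (-0.71 to -0.58 over the wells left out), and without medium replicate 3 the calls over medium on F2 (0.22) and F9 (0.85) ended. F2 over medium also lost its call without CITCO replicate 1 (0.33) or 2 (0.30).

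In BaP wells 7 genes were higher than in medium and F3 was lower, the same directions as DMSO against medium, all 8 called with 19.7% of all probes called (9.30% higher, 10.4% lower). F3 counted 14.2, 7.57 and 7.17 CPM with BaP, against 10.8, 15.8 and 12.7 CPM in DMSO and 29.0, 26.3 and 39.9 CPM in medium. BaP and medium did not overlap (-1.73 ± 0.23, adjusted p = 1.56e-06), whereas BaP and DMSO did (-0.50 ± 0.24, adjusted p = 0.218). Serpinc1 counted 767, 786 and 655 CPM with BaP, against 684, 696 and 618 CPM in DMSO and 451, 437 and 328 CPM in medium, higher than medium by 0.84 ± 0.13. Against DMSO no member was called higher with BaP, and Fga (-0.62 ± 0.16) and Fgg (-0.41 ± 0.11) were lower (9.17% of probes; 4.10% higher, 5.07% lower). Both calls were lost without DMSO replicate 1 or 2 or BaP replicate 1 or 3 (-0.72 to -0.57 and -0.47 to -0.35 over the wells left out), and F3 was called without BaP replicate 1 (-0.91). Over medium, Plg was lost without medium replicate 3 (1.22), BaP replicate 1 (1.42) or BaP replicate 2 (1.21), and F2 without medium replicate 3 (0.22). F13b (1.51 ± 0.33), Kng1 (0.94 ± 0.24), Cpb2 (0.80 ± 0.09) and Serpinf2 (0.79 ± 0.13) were also higher than in medium, and Plaur (-0.98 ± 0.15) and S100a10 (-0.74 ± 0.09), the partner of Anxa2, were lower. Cholangiocyte markers summed to 383 to 431 CPM with BaP, 545 to 624 CPM in DMSO and 627 to 737 CPM in medium.

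At 20 µM rifampin, Fga counted 2971, 3434 and 2188 CPM, against 6110, 6306 and 5728 CPM in DMSO and 1759, 1961 and 1255 CPM in medium. Against DMSO, 7 of 8 genes were called (2.87% of probes; 1.77% lower): Fga (-1.12 ± 0.17), Fgb (-1.15 ± 0.19), Fgg (-1.05 ± 0.11), F2 (-0.68 ± 0.09), F9 (-0.83 ± 0.20) and Serpinc1 (-0.68 ± 0.13) were lower and F3 was higher (1.00 ± 0.22). Plg had -1.46 ± 0.41 (adjusted p = 0.069). F3 lost its call without DMSO replicate 1 or rifampin replicate 3 (0.87 to 1.15 over the wells left out), and F9 without DMSO replicate 1 or 2 or rifampin replicate 1 or 3 (-1.05 to -0.71). Over medium, Fga (0.79 ± 0.16) and Fgg (0.57 ± 0.11) were higher (0.273% of probes), and both calls were lost without medium replicate 1 or 3 or rifampin replicate 1 or 2 (0.62 to 0.95 and 0.42 to 0.69). At 40 µM, the 3 fibrinogen chains were higher than in medium (3.31% of probes, 1.43% higher and 1.88% lower; Fga 1.13 ± 0.17). Fga, Fgg, F2, Plg (-1.71 ± 0.42) and Serpinc1 (-0.93 ± 0.13) were lower than in DMSO (1.69% of probes). There the calls on Fga (-0.90 to -0.65) and Plg (-2.18 to -1.53) were lost without DMSO replicate 1 or 2 or rifampin replicate 1 or 3, and F9 was called without DMSO replicate 3 (-0.94).

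WY-14643 was run in both sets, at doses that the labels do not settle for set 2, so the 2 groups are given side by side. Fga counted 2393, 2480 and 2387 CPM in set 1, against 6110, 6306 and 5728 CPM in DMSO and 1759, 1961 and 1255 CPM in medium. In set 2 it counted 3914, 3686 and 3963 CPM, against 6401, 5671 and 6339 CPM in DMSO and 1632, 1742 and 2447 CPM in medium. WY-14643 lay between DMSO and medium in both sets without overlap. Against DMSO 7 genes were lower in set 1 (4.88% of probes, 2.35% higher and 2.54% lower; Fga -1.44 ± 0.17, Fgb -1.50 ± 0.19, Plg -1.60 ± 0.41) and 5 in set 2 (0.901%; Fga -0.69 ± 0.16, Fgb -1.04 ± 0.16, Plg -1.43 ± 0.23). In set 1 the calls on Plg (-1.83 to -1.42) and F9 (-0.99 to -0.63) were lost without DMSO replicate 1 or 2 or any WY-14643 replicate. In set 2 those on Fga (-0.75 to -0.66) and Fgg (-0.69 to -0.62) were lost without any one of the 6 wells, and that on Serpinc1 (-0.63 to -0.46) without any but DMSO replicate 5. Against medium F3 alone was called in set 1 (-0.77 ± 0.22; 5.80% of probes, 3.10% higher and 2.70% lower), which was lost without medium replicate 1 or 3 or WY-14643 replicate 2 (-0.89 to -0.58); Fgg was called without medium replicate 2 (0.49). In set 2, 7 genes were called (16.9% of probes; 8.92% higher, 8.02% lower), of which F9 had the largest change (1.42 ± 0.16). There F3 (-1.01 to -0.58) lost its call without medium replicate 4 or 6 or WY-14643 replicate 4 or 6, and Plg (0.73 to 1.03) without medium replicate 5 or WY-14643 replicate 4 or 5, and F2 was called without medium replicate 6 (0.40).

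**Figure D5:**
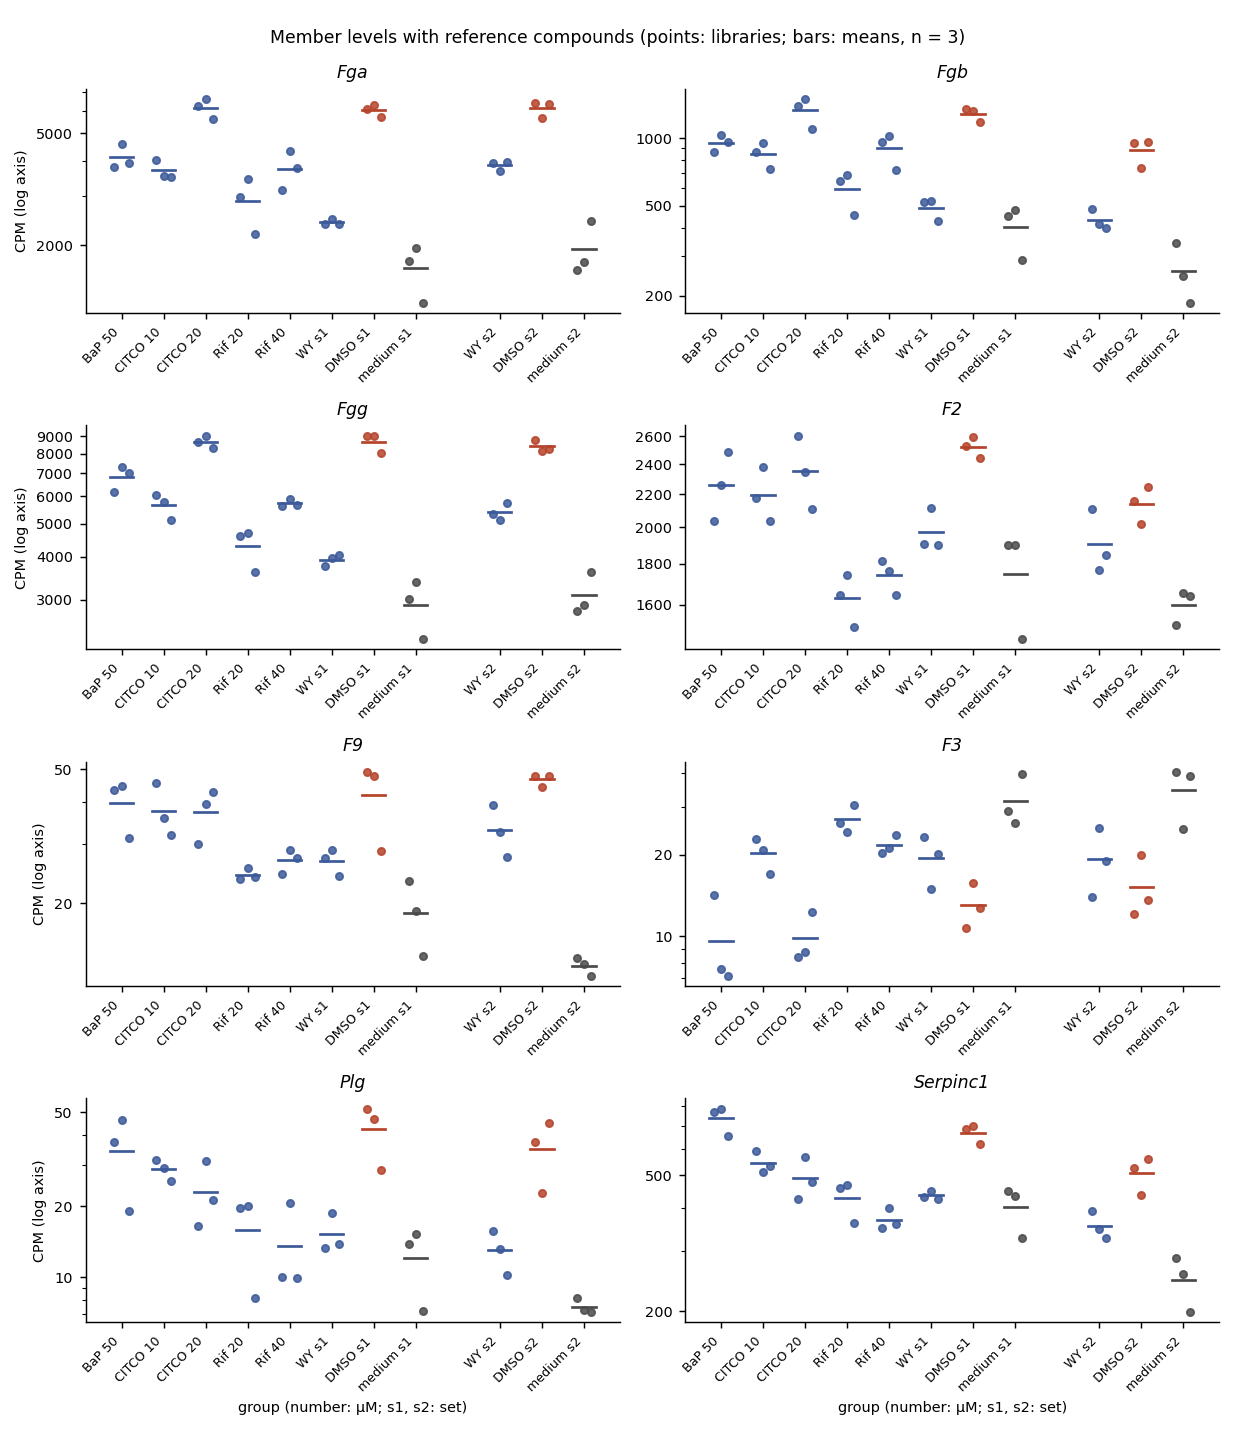
CPM (log axis) of each gene with BaP, CITCO, rifampin and WY-14643 beside DMSO and medium of the same set, points for the 3 libraries and bars for the mean; numbers after a name are µM and s1 and s2 are the sets. CITCO at 20 µM sits with DMSO for Fga (means 6162 and 6048 CPM), and WY-14643 of set 1 sits at 2420 CPM, between DMSO and medium.

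Across the 35 groups the order of the means set DMSO, CITCO 20 µM and BaP high for fibrinogen. This order runs over both sets, so set and treatment cannot be told apart where ranks cross the sets. Medium means of set 1 and set 2 were 405 and 247 CPM for Serpinc1, and 1658 and 1940 CPM for Fga. Fga was highest with CITCO 20 µM (6162 ± 513 CPM), then in DMSO of set 2 (6137 ± 405) and set 1 (6048 ± 294), which differ by less than their SDs, and BaP followed at 4108 ± 414 CPM. Fga was lowest in NE 0.3 mM (1367 ± 46.4), NE 0.1 mM (1584 ± 12) and medium of set 1 (1658 ± 364). F9 was highest in DMSO of set 2 (46.7 ± 1.97 CPM), NE 10 mM (43.3 ± 5.45) and DMSO of set 1 (41.8 ± 11.4), and lowest in 1NP 0.003 mM (9.12 ± 0.70). Plg was highest in DMSO of set 1 (42.4 ± 12.3) and NM 3 mM (40.4 ± 10.3) and lowest in medium of set 2 (7.51 ± 0.55). Serpinc1 was highest in NE 10 mM (856 ± 106) and NE 3 mM (794 ± 8.51), which differ by less than the larger SD, and lowest in medium of set 2 (247 ± 44.6). F3 was highest in NM 10 mM, whose replicate 3 was its highest well, and in 1NP 10 mM (42.6 ± 31.3, set apart by replicate 3). It was lowest in BaP (9.64 ± 3.94) and CITCO 20 µM (9.84 ± 2.17). F2 moved least, between 1321 ± 141 CPM in NE 10 mM and 2651 ± 98.3 CPM in NM 3 mM.

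As a description over the 35 group means of log2(CPM + 1), which share libraries, controls and depth, Pearson's r was 0.99 between Fga and Fgg, 0.87 between Fga and Fgb and 0.91 between Fgb and Fgg. Within set 1 and set 2 the value for Fga and Fgg was 0.99 and 1.00. F3 ran opposite to every other member, from -0.86 with Fgb to -0.53 with F2. For Serpinc1 r was 0.73 with Plg, 0.72 with F9 and 0.36 with Fga. The ratio of Fgg to Fga counts stayed within 1.30 to 1.98 over all 105 libraries (median 1.63), while that of Fgb to Fga ran from 0.0365 to 0.329 (median 0.206). Its lowest values were those of NM 10 mM replicate 3 and NM 3 mM replicate 1, 2 of the libraries that stood apart. Among 7610 other probes with a mean of at least 10 CPM, the profiles most like the mean of the fibrinogen chains were those of Cxcl10 (r = 0.922), C4bpa (0.917), Serpina11 (0.877), Sar1b (0.877) and Tgoln2 (0.876). Those most like F3 were Inhba (0.938), Bcat1 (0.920), Car3 (0.918), Ano2 (0.918) and Loxl2 (0.916).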

How the data were processed

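TempO-Seq libraries of 105 wells were read as the counts per probe that the authors deposited, unnormalised, for 22253 probes. FastQC, Bowtie, R 3.5.3 and DESeq2 1.28.1 are named, per the submitters' processing notes; their genome build is not given in the sources used here. Counts were tested with edgeR 4.0.16 in R 4.3.3 (TMM scaling, filterByExpr with a minimum count of 10 and total of 15, robust quasi-likelihood F test), with Benjamini-Hochberg adjustment over all probes kept and calls under 0.05. SEs come from the F statistic and 95% intervals from the normal quantile. Each nitroalkane's 24 wells were fitted with medium and, separately, with DMSO of its set; reference compounds were fitted with both. The code was tested on simulated counts. Alternatives were DESeq2 1.42.0, other scalings, no filter, a replicate block and leaving out wells. Members, lists and tests were chosen with earlier results of these data known. Other genes were named when called, without overlap and with at least 10 CPM, at most 6 a comparison by absolute log2 change. Replicate numbers were not used to pair samples in the main fits. In 5 of 48 pairs of a group with its control, all 3 correlations of deviations exceeded 0.1. The correlations ran from -0.42 to 0.6, and this check was no formal test of pairing. It left out 1NP, whose wells share no replicate numbers with their controls.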

Additional observations from a re-analysis of the deposited data

How the results depend on the processing

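Values here are counts of the 8 members called, with the count in the report second, unless said otherwise. Shares of all probes called are not given for any of the alternatives of this section. A changed count may therefore hold for probes in general and is not read as particular to the members. DESeq2 called 3 (1) for CITCO 10 µM against DMSO, 1 (0) for CITCO 20 µM against DMSO, 3 (1) for WY-14643 of set 1 against medium, 5 (0) for 1NP 3 mM against medium and 7 (1) over all 1NP concentrations against medium. RLE scaling gave 2 (1) for WY-14643 of set 1 against medium and 3 (5) for WY-14643 of set 2 against DMSO, and scaling by library totals gave 3 (1) for the first. With no filter, counts were 8 (5) and 4 (1) for CITCO 10 µM against medium and DMSO, 2 (0) for CITCO 20 µM and 8 (5) for rifampin 40 µM against DMSO, 3 (1) for WY-14643 of set 1, 6 (0) for 1NP 3 mM and 3 (1) for 1NP 10 mM against medium, 17 (1) over all 1NP concentrations, 0 (1) for the NM slope, and 1 (0) and 2 (0) for 1NP minus NE at 10 mM over medium and DMSO. With a replicate block, which the numbers do not justify as a pairing, counts were 3 (1) for CITCO 10 µM and 1 (0) for CITCO 20 µM against DMSO and 3 (1) for WY-14643 of set 1 against medium. For 1NP against its controls no block could be fitted, because its wells share no replicate numbers with theirs.

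Without the libraries that stood apart, an alternative chosen after seeing the data, counts were 7 (4) for NM 3 mM, 7 (4) for NE 10 mM, 5 (0) for 1NP 3 mM and 0 (1) for 1NP 10 mM against medium, 8 (4) and 7 (1) over all NM and 1NP concentrations against medium, 4 (2) for NM 3 mM and 4 (2) for 1NP 3 mM against DMSO, 0 (1) for the NM and 1 (0) for the 1NP slope, 6 (3) for NE minus NM, and 3 (0) and 6 (0) for 1NP minus NE over medium and DMSO at 10 mM. The 3 log2 differences that follow, at 10 mM, changed sign with a call: Fga of NE minus NM to 0.22 (-0.00), Serpinc1 of 1NP minus NE over medium to -0.74 (0.23) and Fgb of 1NP minus NE over DMSO to -0.73 (0.04). The cause of these moves was not tested. Shares of all probes in these fits are not given, so the higher counts are not read as particular to the members.

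Leaving out 1 well at a time gave 0 to 2 for 1NP 10 mM, 0 to 2 for 1NP 3 mM, 0 to 1 for NM 10 mM, 2 to 8 for NE 3 mM, 3 to 5 for CITCO 10 µM, 0 to 2 for rifampin 20 µM and 0 to 2 for WY-14643 of set 1 against medium. Against DMSO it gave 1 to 2 for 1NP 3 mM, 1 to 3 for NE 3 mM, 0 to 2 for BaP, 0 to 1 for CITCO 10 µM and 20 µM, 3 to 6 for rifampin 40 µM and 2 to 3 for WY-14643 of set 2. It gave 1 to 3 for NE minus NM and 0 to 2 and 0 to 3 for 1NP minus NE over medium and DMSO at 10 mM, and 0 to 0, 1 to 3 and 0 to 1 for the slopes of NM, NE and 1NP. Of 5144 member values under alternatives, 4785 kept their side of the threshold (4623 with the same direction, and 162 with another sign while not called under either fit), 193 became called, 163 lost their call and 3 are those above. With 3 wells a group and 1 cell lot, differences within the intervals given were not detectable.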
